A study of Mus musculus with 15 samples.

Results

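Prostate organoids that lacked both Setd2 and Ezh2 (double null) were compared with control organoids, gene by gene, by RNA sequencing. The genes were all those with a mean level of at least 1 RPKM (reads scaled to gene length and library size) over the 8 libraries of 4 genotypes. This kept 11338 of 21886 listed genes. The control cells were not wild type, since all 4 genotypes shared 1 further heterozygous allele that is not named here. Control carried that alone, and double null carried it with Setd2PC-/-;Ezh2PC-/-. Setd2 null (Setd2PC-/-) and Ezh2 null (Ezh2PC-/-) organoids carried 1 deletion each and are used here to place the double null levels. The labels do not define PC or name the Cre driver. All cells were prostate epithelial cells from 3-month-old C57BL/6 mice, grown as organoids, which are small hollow structures formed by epithelial cells in a gel. Each group had 2 libraries, and each library was an equal-mass pool of RNA from 3 biological replicates, and the tests therefore measure how pools vary, not how animals vary.

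SETD2 is the enzyme that places trimethylation on lysine 36 of histone H3 (H3K36me3) in the bodies of transcribed genes. EZH2 is the main catalytic subunit of Polycomb repressive complex 2 (PRC2), which places H3K27me3 on silenced genes such as the Hox clusters. The marks oppose each other on the same histone tail, and EZH2 is known in the prostate as a gene whose level goes up with tumour progression.

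Reads on listed genes were 29686132 and 29789277 in control and 48329108 and 49863285 in double null, so both double null libraries were deeper. Setd2 null had 32201188 and 34880981 and Ezh2 null 54203864 and 46915833. Depth therefore went with Ezh2 deletion, and these cannot be told apart here. Genes above 0 numbered 15083 and 15041 in control and 16265 and 16382 in double null. The first principal component of all genes tested (81.25% of the variance) separated the Ezh2-deleted libraries from the others. The second (6.93%) separated the libraries numbered 1 and 2 within Ezh2 null and within double null. In double null, 92 genes were at least 4-fold higher in library 1 than in library 2, and 79 of them overlapped another listed gene, as 19% of all tested genes did. None of the 92 was called in double null against control, and none is named below as a leading gene. At the edge of the filter, Trex2 (mean 1.0003 RPKM, 0.0162 in control and 1.74 in double null) was kept and Msrb2 (mean 0.998 RPKM, 0.727 and 1.36) was left out.

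The labelled cell type was checked on marker lists. Summed RPKM of 19 luminal prostate markers was 5530 and 5446 in control and 7765 and 8505 in double null. For 20 basal markers the sums were 3932 and 3976 in control and 5873 and 6801 in double null. Of the lists of other cells, the urothelium and other epithelia list was higher in double null, and this was mostly Krt13, a keratin given below. Its 10 genes summed to 41 and 40.6 RPKM in control, 178 and 232 in Ezh2 null, against 443 and 528 in double null. The 13 stromal markers summed to 12.6 and 9.58 RPKM in control and 34.1 and 29.6 in double null, and 7 of them were below 1 RPKM in all 4 libraries. The 7 endothelial markers summed to 0.581 and 0.553 against 2.38 and 3.00. The 10 immune markers summed to 22.8 and 25.6 against 52.1 and 50.4, most of it Cd68 in control and Cd52 in double null, with Cd3e at 0 in the 4 libraries of control and double null and Ptprc at or below 0.0206. In bulk RNA, fewer cells of a type and less RNA per cell cannot be told apart.

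Setd2, on chromosome 9 (110529296 to 110618633, mm10), had 17 and 16.1 RPKM in control and 8.99 and 7.54 in double null (log2 fold change of -0.93 with SE 0.15, limma adjusted p = 0.000642). Both double null libraries were below both control libraries. Ezh2, on chromosome 6 (47530274 to 47595340), had 19.4 and 20.8 RPKM in control and 16.6 and 14.2 in double null (log2 fold change of -0.37 with SE 0.14, limma adjusted p = 0.0514). The groups did not overlap, but the difference did not pass the threshold of 0.05, and its adjusted p ran from 0.0024 to 0.272 over the alternative analyses. The table has 1 value per gene, so transcripts that lack only the deleted exons still count. Fold changes here and below are differences of log2(RPKM + 1) with the standard error of the fit, which understates the change of low genes, and a gene is called where limma's adjusted p over all 11338 genes is under 0.05. Genes named below that are not among the leading, neighbouring or most abundant genes or the members of smallest p of a list were chosen after their values were seen.

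Of the 11338 genes, 6147 (54.2%) were called, 3874 higher (34.2%) and 2273 lower (20%) in double null. At an unadjusted p under 0.05 the share was 59.6%. At least 2-fold changes were called for 1275 higher genes (11.2%) and 759 lower genes (6.69%). Both double null libraries were above both control libraries for 49.4% of the genes and below them for 31.3%. The median fold change over all genes was 0.15 on the log2 scale, and it was -0.01 after quantile normalization, which split the calls into 2937 higher and 3156 lower. Levels are therefore read below beside that median of 0.15. List members under 1 RPKM in both control and Setd2 null passed the filter only through the groups without Ezh2, where they were high, so their direction was fixed by the filter. Among the lists below these were 11 of 19 secretory, 10 of 29 cornified envelope, 6 of 28 androgen response, 5 of 27 developmental factor and 3 of 26 Hox genes. They were also 9 of 10 beta-defensin, 4 of 17 antimicrobial, 3 of 5 stromal and 2 of 3 immune genes. The luminal (19), keratin (21), chemokine (26), junction (31), TGF-beta (24) and cysteine metabolism (24) lists had 2 each, and the rest at most 1. Saa3, Cldn10, Col1a2, Col3a1, Cxcl17, Spdef, Azgp1, Cldn2, Upk2, Esam and Phf19, given below, were among them. So were the factor genes Hoxb2, Hoxb8, Irx1, Pax2, Pax8 and Hand2. The p of such a gene is no support for its direction. With the double null libraries left out in turn, 5331 genes were called without library 1 and 4566 without library 2.

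**Figure D1:**
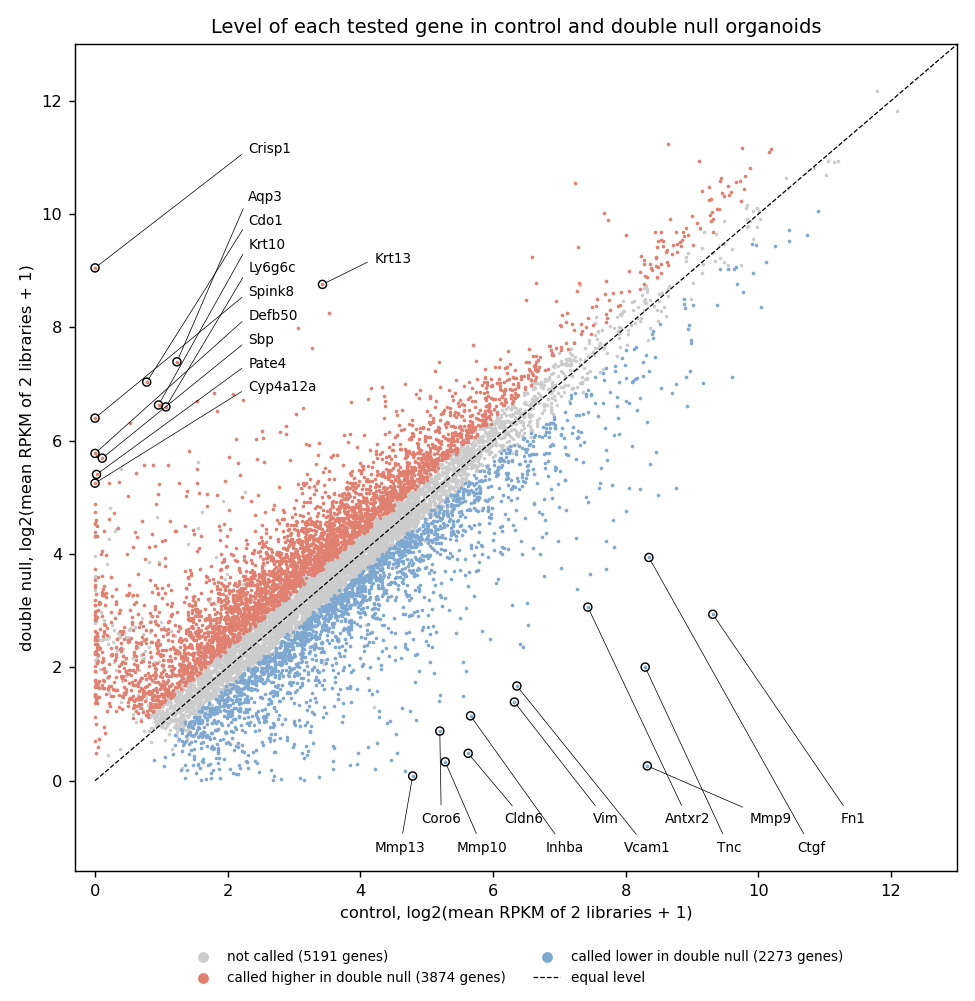
Each point is 1 of the 11338 genes tested, with its mean level in the 2 control libraries on the horizontal axis and in the 2 double null libraries on the vertical axis, both as log2(RPKM + 1). Red points (3874) were called higher and blue points (2273) lower in double null, grey points were not called, the dashed line marks equal levels, and the circled genes are those with the highest and lowest fold changes named in the text.

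The genes with the highest fold changes included secretory and squamous genes. Crisp1, a secreted cysteine-rich protein of the male genital tract, was at 0 in each control library, with 622 and 436 RPKM in double null (limma adjusted p = 7.7e-09). Spink8, a Kazal-type protease inhibitor, was listed at 0 in control and had 94.9 and 71.8 RPKM in double null (limma adjusted p = 8.55e-09). Defb50, a beta-defensin, was at 0 in control with 65.5 and 42.1 RPKM in double null (limma adjusted p = 1.77e-07), and Cyp4a12a, an androgen-regulated fatty acid hydroxylase, was at 0 with 41.9 and 32.3 RPKM (limma adjusted p = 1.6e-08). No fold is given for these 4 because control was at 0. Cdo1, the dioxygenase that starts the conversion of cysteine to taurine, went from 0.961 and 0.47 RPKM to 142 and 118 (log2 fold change of 6.26 with SE 0.18, limma adjusted p = 1.45e-08). The water and glycerol channel gene Aqp3 went from 1.2 and 1.51 RPKM to 149 and 185 (log2 fold change of 6.15 with SE 0.17, limma adjusted p = 1.13e-08). For each of these 6 genes both double null libraries were above both control libraries. Krt10, Sbp (spermine-binding protein), Ly6g6c, Pate4 and Krt13 followed, with fold changes from 5.33 to 5.66 on the log2 scale. However, Crisp1, Spink8, Defb50, Cyp4a12a, Cdo1, Krt10, Sbp and Pate4 had means under 1 RPKM in both control and Setd2 null. They passed the filter only through the groups without Ezh2, so their direction was fixed by the filter and their p is no support for it.

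The 12 genes with the lowest fold changes included matrix, protease and adhesion genes. Mmp9, a gelatinase, had 274 and 366 RPKM in control and 0.184 and 0.214 in double null (log2 fold change of -8.05 with SE 0.29, limma adjusted p = 2.46e-07). Fibronectin, encoded by Fn1, had 627 and 642 RPKM in control and 6.4 and 6.92 in double null (log2 fold change of -6.38 with SE 0.24, limma adjusted p = 7.28e-08). The matrix glycoprotein gene Tnc (tenascin C) had 316 and 309.8 RPKM in control and 2.99 and 3.03 in double null (log2 fold change of -6.29 with SE 0.14, limma adjusted p = 7.7e-09). For these 3 both double null libraries were below both control libraries. Vim, the intermediate filament of mesenchymal cells, had 83.3 and 74.7 RPKM in control and 1.66 and 1.58 in double null (log2 fold change of -4.93 with SE 0.12, limma adjusted p = 7.7e-09). Cldn6, a tight junction protein of embryonic epithelia, had 43.3 and 53.3 RPKM in control and 0.357 and 0.44 in double null (log2 fold change of -5.13 with SE 0.14, limma adjusted p = 1.09e-08). Ctgf, a matricellular protein, had 339 and 311 RPKM in control and 16.1 and 12.6 in double null (log2 fold change of -4.42 with SE 0.17, limma adjusted p = 9.12e-08). The remaining 6 were the matrix proteases Mmp10 and Mmp13, the adhesion molecule Vcam1, the activin subunit gene Inhba, the anthrax toxin receptor gene Antxr2 and the actin-binding coronin gene Coro6, with fold changes from -4.95 to -4.31 on the log2 scale.

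**Figure D2:**
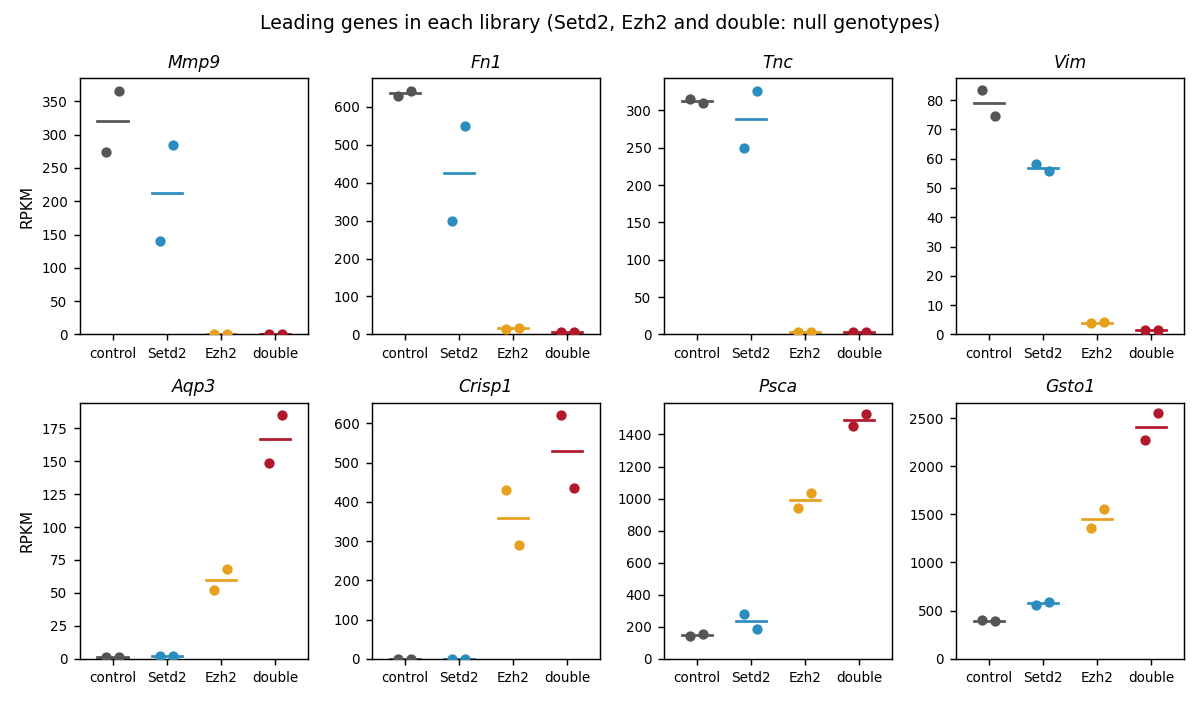
RPKM of 8 genes in each of the 8 libraries, by genotype, with a bar at the mean of the 2 libraries of a group and a vertical axis that starts at 0. Mmp9, Fn1, Tnc and Vim were lower and Aqp3, Crisp1, Psca and Gsto1 higher in double null than in control, and the Ezh2 null libraries lay on the double null side for each of the 8.

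Genes of the extracellular matrix and its receptors were mostly lower. Of 35 tested members of that list (6 more were under 1 RPKM), 28 were called lower and 4 higher, with a median fold change of -1.4 beside 0.15 for all genes. The laminin chains Lama3 and Lamb3, proteins of the basement membrane, were lower. Lama3 had 215 and 198 RPKM in control and 17.9 and 17.8 in double null (log2 fold change of -3.46 with SE 0.12, limma adjusted p = 5.09e-08). Lamb3 had 353 and 351 RPKM in control and 52 and 58.1 in double null (log2 fold change of -2.66 with SE 0.14, limma adjusted p = 5e-07). Several integrin subunit genes were also lower. Itga2 had 256 and 255 RPKM in control against 28.4 and 24.1 in double null (log2 fold change of -3.24 with SE 0.13, limma adjusted p = 9.12e-08). The common beta subunit gene Itgb1 had 613 and 532 against 144 and 114 RPKM (log2 fold change of -2.15 with SE 0.17, limma adjusted p = 6.95e-06). The fibronectin receptor gene Itga5 was lower too (-2.31 on the log2 scale). Spp1, which encodes osteopontin, was lower as well (-2.52). The 4 higher members were Thbs2, Col16a1, Itgb8 and Tgfbi, from 0.56 to 1.15 on the log2 scale. Tgfbi had 1.98 and 1.86 RPKM in control, 1.73 and 2.5 in Ezh2 null, against 5.67 and 5.27 in double null.

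Extracellular proteases and their inhibitors had 16 of 25 tested members lower and 4 higher (4 were under 1 RPKM), with a median of -0.95. Besides the 3 matrix metalloproteases above, the metalloprotease gene Adam12 had 17.4 and 17.9 RPKM in control and 0.205 and 0.11 in double null (log2 fold change of -4.01 with SE 0.12, limma adjusted p = 1.83e-08). Plau, the urokinase that activates plasminogen, had 227 and 222 RPKM in control and 16.2 and 16.5 in double null (log2 fold change of -3.7 with SE 0.13, limma adjusted p = 6.1e-08). Timp1, an inhibitor of metalloproteases, had 97.2 and 82.8 RPKM in control and 7.82 and 7.68 in double null (log2 fold change of -3.37 with SE 0.15, limma adjusted p = 1.71e-07). Proteases and inhibitors thus both had members below control. Serpinb1a, an intracellular inhibitor of neutrophil proteases, was higher, with 7.22 and 7.14 RPKM in control and 30.3 and 29.7 in double null (log2 fold change of 1.92 with SE 0.11, limma adjusted p = 1.02e-06). Mesenchymal regulators and markers had 9 of 15 tested members lower and 3 higher (median -1.28, 6 more under 1 RPKM). The receptor kinase gene Axl was among the lower (-2.19). The galectin gene Lgals1 had 225 and 188 RPKM in control and 11.4 and 13.3 in double null (log2 fold change of -3.96 with SE 0.20, limma adjusted p = 3.83e-07), and the caldesmon gene Cald1 had 59.7 and 52.4 against 5.76 and 4.66 RPKM (log2 fold change of -3.2 with SE 0.14, limma adjusted p = 1.48e-07). The transcription factor gene Twist1, usually a mesenchymal regulator, was higher, from 0 and 0.0202 RPKM to 5.24 and 7.09 (limma adjusted p = 6.95e-06). As it was near 0 in control, Twist1 could not have been called lower, so its p is no support for a change against the list. The epithelial-mesenchymal regulator gene Snai2 was also higher, at 7.98 and 6.85 RPKM in control and 11.1 and 9.17 in double null (log2 fold change of 0.40 with SE 0.15, limma adjusted p = 0.044). Its change stands beside a median of 0.15 for all genes, and after quantile normalization 2 mesenchymal members were called higher instead of 3. Stromal markers moved in the same samples, as given above, but in both directions: the collagen genes Col1a2 (0.145 and 0.0189 against 2.87 and 2.98 RPKM) and Col3a1 (0.125 and 0.0827 against 2.88 and 3.08) and the decorin gene Dcn (1.3 and 1.06 against 25.5 and 20.3) were higher, and the periostin gene Postn (8.37 and 6.64 against 0.0178 and 0.0405) was lower. Their part in the matrix result was not tested.

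**Figure D3:**
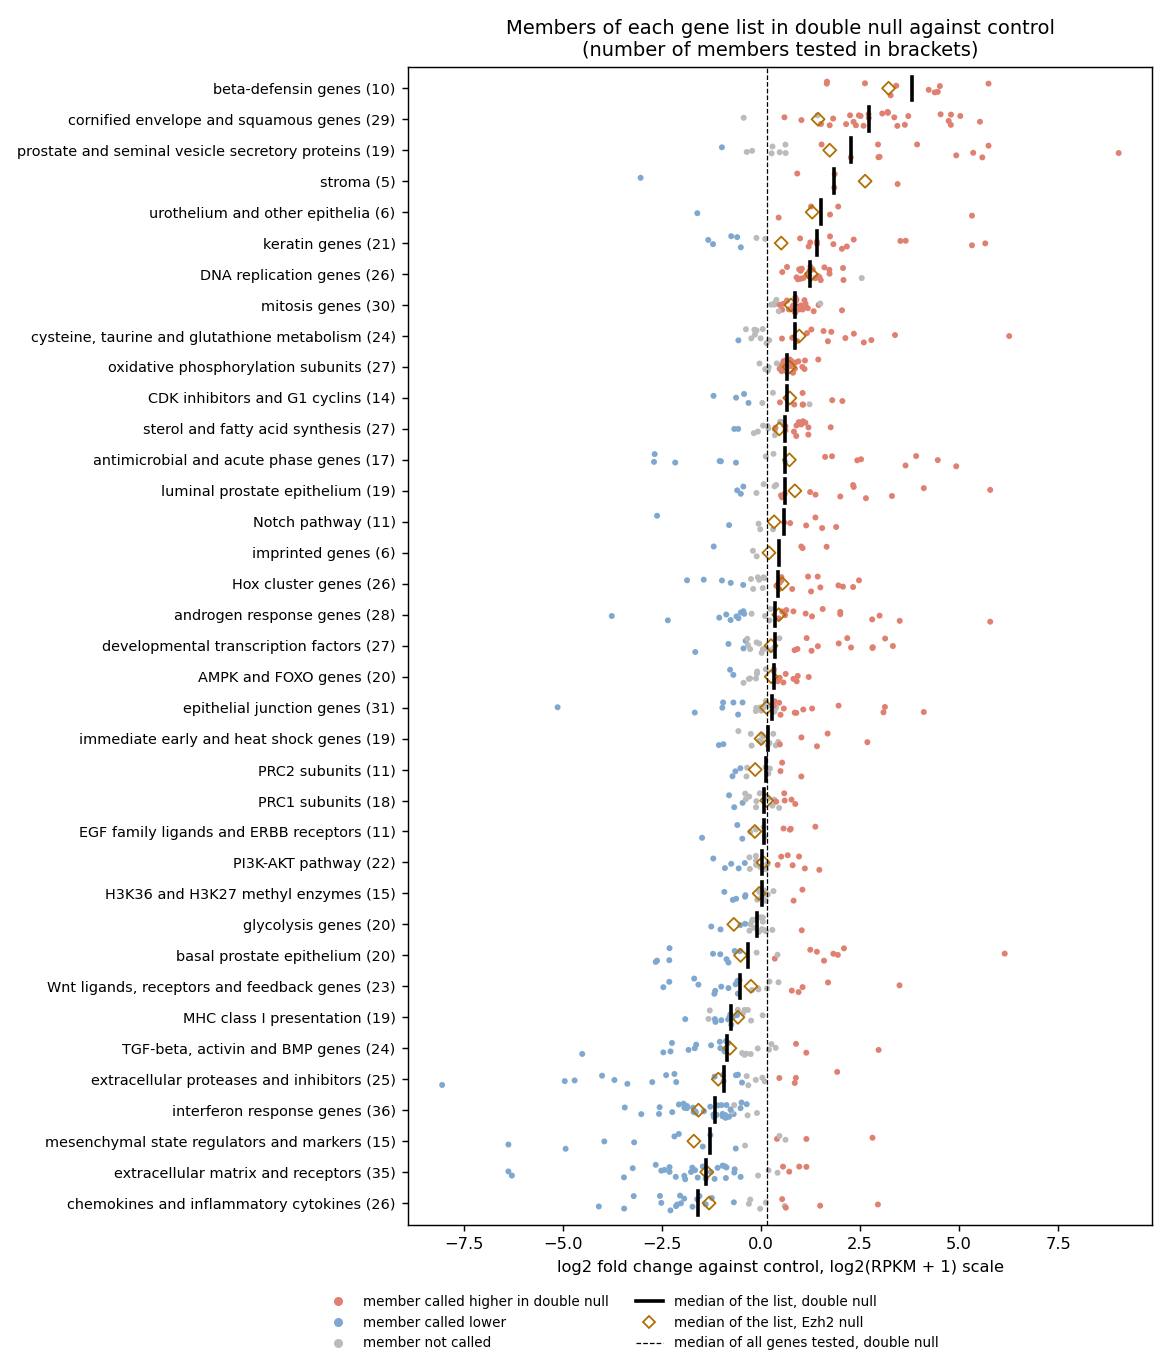
Log2 fold change of each tested member of the gene lists with at least 5 tested members, in double null against control, on the log2(RPKM + 1) scale, coloured by its call. Black bars mark the list's median in double null and open diamonds its median in Ezh2 null, and the dashed line is the median of all genes (0.15). The chemokine, matrix and mesenchymal lists have the lowest medians and the beta-defensin and cornified envelope lists the highest, and 9 of 10 and 10 of 29 of their members passed the filter only through the groups without Ezh2.

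Luminal prostate markers had 12 of 19 members called higher and 3 lower, with a median of 0.60. The stem cell antigen gene Psca had 145 and 155 RPKM in control and 1450.1 and 1529 in double null (log2 fold change of 3.31 with SE 0.19, limma adjusted p = 8.83e-07). Ly6d, a marker of castration-resistant luminal progenitors, had 89.1 and 101 RPKM in control and 562 and 639 in double null (log2 fold change of 2.65 with SE 0.17, limma adjusted p = 2.16e-06). The claudin gene Cldn10 had 0.274 and 0.273 RPKM in control and 22.7 and 19.3 in double null (log2 fold change of 4.11 with SE 0.16, limma adjusted p = 8.93e-08). The posterior prostate factor gene Hoxb13 had 19.3 and 20.3 RPKM in control and 95.1 and 112 in double null (log2 fold change of 2.32 with SE 0.16, limma adjusted p = 3.09e-06), and the serine protease gene Tmprss2 had 25.8 and 29.1 against 111 and 114 RPKM (log2 fold change of 2.0 with SE 0.16, limma adjusted p = 8.21e-06). The simple epithelial keratins were lower, Krt8 at 1029 and 975 RPKM in control and 688 and 718 in double null (log2 fold change of -0.51 with SE 0.17, limma adjusted p = 0.0295) and Krt18 at 822 and 757 against 514 and 526 (log2 fold change of -0.60 with SE 0.15, limma adjusted p = 0.00761). The pioneer factor gene Foxa1 (0.07 on the log2 scale, limma adjusted p = 0.759) did not pass the test.

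Androgen response genes split, with 14 of 28 tested members higher and 10 lower (median 0.35, 1 more under 1 RPKM). The luminal factor gene Spdef had 0.355 and 0.497 RPKM in control and 8.17 and 9.82 in double null (log2 fold change of 2.81 with SE 0.16, limma adjusted p = 9.01e-07). The prostaglandin dehydrogenase gene Hpgd had 1.04 and 0.573 RPKM in control and 23 and 16.1 in double null (log2 fold change of 3.5 with SE 0.22, limma adjusted p = 1.55e-06). The receptor co-chaperone gene Fkbp5 had 38 and 40.5 RPKM in control and 115 and 120.1 in double null (log2 fold change of 1.56 with SE 0.12, limma adjusted p = 4.86e-06). On the other side, Pmepa1, a transmembrane inhibitor of TGF-beta signalling, had 85.4 and 96.1 RPKM in control and 5.47 and 5.99 in double null (log2 fold change of -3.77 with SE 0.16, limma adjusted p = 1.41e-07). The retinaldehyde dehydrogenase gene Aldh1a3 had 197 and 192 RPKM in control and 35.8 and 38.8 in double null (log2 fold change of -2.35 with SE 0.13, limma adjusted p = 5.28e-07). Azgp1, a secreted zinc-binding glycoprotein of luminal cells, had 0.201 and 0.20 RPKM in control and 9.05 and 8.09 in double null (log2 fold change of 2.99 with SE 0.12, limma adjusted p = 9.12e-08). The list therefore had changes of over 2-fold in both directions in the same libraries.

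Secretory proteins of the prostate and seminal vesicle had 11 of 19 tested members higher and 1 lower, with 9 further members under 1 RPKM. Of all genes, 34.2% were called higher and 20% lower. The list's median was 2.27, and 5 of the members (Crisp1, Defb50, Spink1, Pbsn and Svs4) were listed at 0 in both control libraries, so this median depends on the pseudocount and is no bound. Moreover, 11 of the 19 were under 1 RPKM in both control and Setd2 null, so the filter fixed their direction. The count of higher members and the median are therefore no result about this list. Sbp, which encodes spermine-binding protein, had 0.157 and 0 RPKM in control and 49.7 and 51.6 in double null (log2 fold change of 5.59 with SE 0.15, limma adjusted p = 1.09e-08). Pbsn, the probasin gene of the mouse prostate, was listed at 0 in control and had 3.68 and 3.95 RPKM in double null (limma adjusted p = 4.07e-07). Agr2, a disulfide isomerase of secretory cells, had 2.3 and 4.45 RPKM in control and 66.5 and 61.8 in double null (log2 fold change of 3.94 with SE 0.24, limma adjusted p = 1.3e-06). The iron-binding lactoferrin gene Ltf had 7.64 and 7.08 RPKM in control and 255 and 251 in double null (log2 fold change of 4.93 with SE 0.16, limma adjusted p = 2.99e-08). The lower member was Wfdc2, a whey acidic protein inhibitor, at 662 and 662 RPKM in control and 337 and 330.2 in double null (log2 fold change of -0.99 with SE 0.13, limma adjusted p = 0.000188). Clusterin, encoded by Clu, did not pass the test against control (2147 and 2383 against 1982 and 1888 RPKM, limma adjusted p = 0.319), but at 5563 and 5679 RPKM in Ezh2 null it was lower in double null than there (log2 difference of -1.54 with SE 0.18, limma adjusted p = 0.000858).

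Of 20 basal prostate markers 8 were higher and 10 lower, with a median of -0.32. The lower members included the laminin chain gene Lamb3, the Notch ligand gene Jag1 (42 and 46.2 RPKM in control and 6.09 and 6.53 in double null, log2 fold change of -2.62 with SE 0.14, limma adjusted p = 5.43e-07), and the integrin genes Itga6 and Itgb4. The higher members included the basal keratin genes Krt5 (543 and 551 against 1812 and 2084 RPKM, log2 fold change of 1.83 with SE 0.17, limma adjusted p = 1.93e-05), Krt14 (434 and 373 against 826 and 1099.5, log2 fold change of 1.24 with SE 0.26, limma adjusted p = 0.00301) and Krt15 (805 and 921 against 2176 and 2412, log2 fold change of 1.41 with SE 0.17, limma adjusted p = 9.7e-05). The basal master regulator gene Trp63 was higher by a small amount, at 21.3 and 21.3 RPKM in control and 27.9 and 26.8 in double null (log2 fold change of 0.35 with SE 0.11, limma adjusted p = 0.0253). That change stands beside a median of 0.15 for all genes, and after quantile normalization 7 of the 20 markers were called higher instead of 8. The desmosomal cadherin genes Dsg3 (14.2 and 13.1 against 43.9 and 42.1 RPKM) and Dsc3 (2.99 and 2.49 against 16 and 13.9) and the neurotrophin receptor gene Ngfr (1.38 and 1.06 against 7.26 and 7.75) were also higher. In each of these 7 the double null libraries were above the control libraries without overlap.

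Keratins form the intermediate filaments of epithelial cells. The keratin list and the cornified envelope list were drawn up after values had been seen, so their counts are descriptions. Of 21 tested keratin genes (32 more were under 1 RPKM), 14 were higher and 5 lower than in control. In the test of double null against Ezh2 null, which called 736 genes (6.49%), 430 higher (3.79%) and 306 lower (2.7%), 10 of the 21 were higher and none lower. Krt6b, a keratin of hyperproliferative and wounded epithelium, had 4.2 and 5.21 RPKM in control, 10.6 and 15.8 in Ezh2 null, against 65.1 and 76.4 in double null (log2 fold change of 3.65 with SE 0.23, limma adjusted p = 1.8e-06, and against Ezh2 null log2 difference of 2.36 with SE 0.23, limma adjusted p = 0.000314). Its partner Krt16 had 5.07 and 4.44 RPKM in control, 10.6 and 13.2 in Ezh2 null, against 56.3 and 74.6 in double null (log2 difference of 2.36 with SE 0.21, limma adjusted p = 0.000163 against Ezh2 null). Krt13, of non-cornified stratified epithelium, had 9.2 and 10.3 RPKM in control, 116 and 162 in Ezh2 null, against 392 and 471 in double null (log2 difference of 1.64 with SE 0.26, limma adjusted p = 0.00437 against Ezh2 null). The double null libraries were above the Ezh2 null libraries in all 3. Krt10, a suprabasal epidermal keratin, had 1.02 and 0.859 RPKM in control, 25.3 and 36.7 in Ezh2 null, against 84.1 and 112 in double null (log2 difference of 1.64 with SE 0.19, limma adjusted p = 0.000817 against Ezh2 null). The luminal progenitor keratin gene Krt4 was called against control but not against Ezh2 null, with 201 and 205 RPKM in control, 988 and 1193 in Ezh2 null, against 969 and 1102 in double null (log2 difference of -0.07 with SE 0.22, limma adjusted p = 0.98 against Ezh2 null). Reads of close keratin copies such as Krt6a and Krt6b may have been divided between them.

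Cornified envelope and squamous genes, which build the crosslinked shell of surface keratinocytes, had 27 of 29 tested members higher than in control and none lower, with 40 more under 1 RPKM. Their median was 2.71 in double null and 1.44 in Ezh2 null, both against the same control libraries, and 3 members (Calm4, Cnfn and Sprr2f) were listed at 0 in both control libraries, so the median depends on the pseudocount. For 10 of the 29 the filter fixed the direction against control, where 34.2% of all genes were called higher. Of the 29, 26 were higher in double null than in Ezh2 null (3.79% of all genes were). Involucrin, encoded by Ivl, had 6.12 and 7.25 RPKM in control, 22.8 and 22.6 in Ezh2 null, against 52.6 and 46.2 in double null (log2 fold change of 2.71 with SE 0.20, limma adjusted p = 4.04e-06, and against Ezh2 null log2 difference of 1.08 with SE 0.20, limma adjusted p = 0.0103). Cornulin, encoded by Crnn, had 4.24 and 2.2 RPKM in control, 27.4 and 28.6 in Ezh2 null, against 113 and 112 in double null (log2 fold change of 4.79 with SE 0.25, limma adjusted p = 4.3e-07, and against Ezh2 null log2 difference of 1.97 with SE 0.25, limma adjusted p = 0.00123). The crosslinking transglutaminase gene Tgm1 had 1.69 and 2.1 RPKM in control, 4.77 and 6.37 in Ezh2 null, against 13.2 and 18.2 in double null (log2 fold change of 2.51 with SE 0.18, limma adjusted p = 4.07e-06, and against Ezh2 null log2 difference of 1.34 with SE 0.18, limma adjusted p = 0.00214). For these 3 every double null library was above every Ezh2 null library, and these were above every control library. Sprr2d, a small proline-rich envelope protein, was different: it had 0.824 and 3.09 RPKM in control, 3.96 and 2.59 with Setd2 deleted alone, 0.924 and 1.76 in Ezh2 null, against 31.1 and 34.7 in double null (log2 difference of 3.88 with SE 0.39, limma adjusted p = 0.0018 against Ezh2 null). The Sprr2 genes are near-identical copies, so how their reads were divided is uncertain. Klf4, a transcription factor of surface keratinocytes that is no member of the list, had 8.35 and 8.41 RPKM in control, 23.8 and 29.5 in Ezh2 null, against 54.2 and 64.9 in double null (log2 fold change of 2.69 with SE 0.19, limma adjusted p = 3.21e-06, and against Ezh2 null log2 difference of 1.13 with SE 0.19, limma adjusted p = 0.00621). Urothelial markers moved in the same samples. Their summed RPKM was 41.0 and 40.6 in control and 443 and 528 in double null, most of it Krt13, which both lists hold. The uroplakin genes Upk1a (5.5 and 6.13 against 13.4 and 17.5 RPKM) and Upk2 (0.34 and 0.263 against 4.4 and 3.67) were higher and Upk3a (5.4 and 6.27 against 1.4 and 1.09) lower, and their part in the squamous result was not tested.

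**Figure D4:**
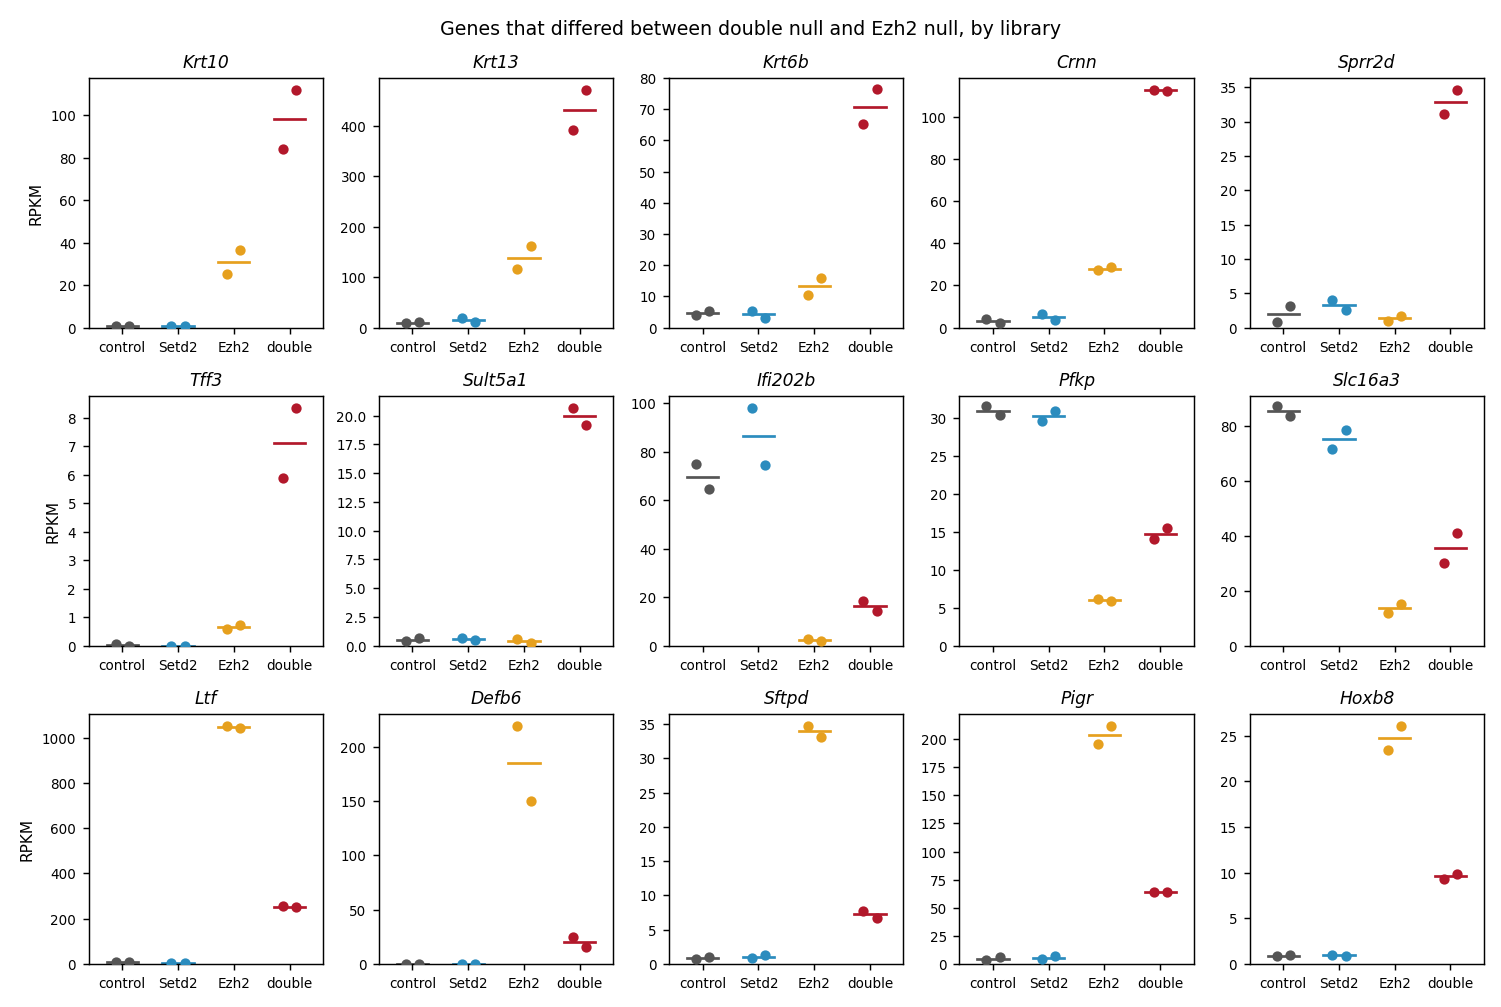
RPKM of 15 genes in each library of the 4 genotypes (axis labels Setd2, Ezh2 and double stand for the null genotypes), with a bar at each group's mean and vertical axes that start at 0. Krt10, Krt13, Krt6b, Crnn, Sprr2d, Tff3 and Sult5a1 were higher in double null than in Ezh2 null, Ifi202b, Pfkp and Slc16a3 lay between Ezh2 null and control, and the 5 genes of the last row were lower in double null than in Ezh2 null.

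Hox genes, the textbook targets of PRC2, were not uniformly higher. Of 26 tested (13 more were under 1 RPKM), 14 were called higher and 5 lower, with a median of 0.42. Hoxb8 had 0.85 and 0.958 RPKM in control and 9.29 and 9.86 in double null (log2 fold change of 2.47 with SE 0.12, limma adjusted p = 3.23e-07). Hoxb9 was higher too (1.95), and Hoxb2 had 0.395 and 0.304 RPKM in control and 4.33 and 5.01 in double null (log2 fold change of 2.07 with SE 0.15, limma adjusted p = 3.45e-06). Within the D cluster the direction changed along the genes: Hoxd3, Hoxd4, Hoxd8 and Hoxd9 were higher, from 0.51 to 1.5, and Hoxd10, Hoxd11 and Hoxd12 were lower, from -1.87 to -0.99 on the log2 scale. Hoxd12 had 5.35 and 4.99 RPKM in control and 0.683 and 0.699 in double null (log2 fold change of -1.87 with SE 0.12, limma adjusted p = 1.84e-06). Hoxd13, next to it, did not pass the test (47.8 and 41.9 against 35.5 and 39.4 RPKM, limma adjusted p = 0.157). Compared with Ezh2 null, 10 of the 26 were lower in double null (2.7% of all genes were) and 1 was higher. These 10 included Hoxb8 (23.4 and 26.1 RPKM in Ezh2 null, log2 difference of -1.28 with SE 0.12, limma adjusted p = 0.000251), Hoxb6 (43.7 and 47.7 in Ezh2 null against 19.4 and 22.2 in double null, log2 difference of -1.1 with SE 0.12, limma adjusted p = 0.000656) and Hoxd4 (14.8 and 16 against 6.16 and 7.31, log2 difference of -1.09 with SE 0.14, limma adjusted p = 0.00147). Double null levels of these genes lay between control and Ezh2 null in each library.

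Among other developmental transcription factors, 12 of 27 tested members were higher and 4 lower (median 0.34), and 27 more were under 1 RPKM. This was a called share of 59.3% beside 54.2% of all genes, and the filter fixed the direction of 5 of the 27. After quantile normalization 12 were higher and 6 lower (median 0.09), so the counts are no result about this list. Tbx2, a T-box repressor, had 2.69 and 3.06 RPKM in control and 33.5 and 42.8 in double null (log2 fold change of 3.33 with SE 0.20, limma adjusted p = 1.27e-06). The Iroquois gene Irx1 had 0.032 and 0.207 RPKM in control and 7.57 and 10.2 in double null (log2 fold change of 3.13 with SE 0.20, limma adjusted p = 2e-06). The paired-box genes Pax2 (0.10 and 0 against 3.91 and 4.24 RPKM, log2 fold change of 2.27 with SE 0.14, limma adjusted p = 1.17e-06) and Pax8 (0.0509 and 0.0127 against 3.7 and 3.63, log2 fold change of 2.18 with SE 0.12, limma adjusted p = 5.93e-07) were higher. Hand2 was listed at 0 in control, with 1.3 and 1.82 RPKM in Ezh2 null, against 5.3 and 6.92 in double null, and was higher in double null than in Ezh2 null (limma adjusted p = 0.000353). Sox11 was lower, at 2.64 and 2.64 RPKM in control and 0.243 and 0.0699 in double null (log2 fold change of -1.66 with SE 0.13, limma adjusted p = 7.05e-06). The luminal and basal lineage factor gene Sox9 (0.02 on the log2 scale, limma adjusted p = 0.947) and Gata3 (0.05, limma adjusted p = 0.811) did not pass the test.

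Genes of the Polycomb complexes and of histone methylation had called shares of 54.5% (PRC2 subunits), 44.4% (PRC1 subunits) and 46.7% (H3K36 and H3K27 methyl enzymes), near or under the 54.2% of all genes, so their counts are not a result about these lists. Of 11 PRC2 subunits 3 were higher and 3 lower, of 18 PRC1 subunits 5 were higher and 3 lower, and of 15 methyl enzymes 2 were higher and 5, among them the deleted Setd2, lower. After quantile normalization the counts were 3 higher and 5 lower, 1 higher and 6 lower, and 2 higher and 5 lower. The lists had medians of 0.12, 0.08 and 0.02, each of which turned negative after quantile normalization (-0.04, -0.09 and -0.15). The second H3K27 methyltransferase gene, Ezh1, was lower, with 19.5 and 21.1 RPKM in control and 13 and 12.3 in double null (log2 fold change of -0.65 with SE 0.12, limma adjusted p = 0.00167). The H3K27 demethylase gene Kdm6a was lower, with 10 and 10.3 RPKM in control and 8.28 and 6.79 in double null (log2 fold change of -0.39 with SE 0.15, limma adjusted p = 0.0448). Of the other PRC2 subunit genes called, Mtf2, Jarid2 and Rbbp7 had log2 fold changes of -0.72, 0.53 and 0.49. In PRC1 the values were -0.81 for Yaf2, -0.68 for Rnf2, 0.60 for Cbx8 and 0.59 for Bmi1. Rbbp7, Rnf2, Cbx8 and Bmi1 lost their call under at least 1 alternative. Among the enzymes, the H3K36 demethylase gene Kdm2b was called at 0.82 and the methyltransferase gene Smyd2 at 1.04. Phf19, an accessory subunit that binds H3K36me3, was higher, with 0.874 and 0.665 RPKM in control and 2.97 and 2.22 in double null (log2 fold change of 1.02 with SE 0.14, limma adjusted p = 0.000217).

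Interferon response genes, which encode antiviral proteins, were lower as a group. Of 36 tested members (1 more was under 1 RPKM), 32 were called lower and none higher, with a median of -1.16 in double null and -1.58 in Ezh2 null. To show what these genes share upstream, the interferon-stimulated response element core, written here as GAAA, any 2 bases, GAAA, was looked for in the 250 bases before the start site of each gene with a RefSeq promoter, on both strands. It was found in 13 of 27 members, 12 of them among the 25 called lower, and in 3.05% of 9111 tested genes. The 200 bases before the start of Ifit1 (chr19:34640689-34640888), Ifit3 (chr19:34583329-34583528) and Gbp2 (chr3:142620463-142620662), all on the plus strand of GRCm38.p6, are printed 5′ to 3′ from RefSeq with the matches in capitals.
Ifit1: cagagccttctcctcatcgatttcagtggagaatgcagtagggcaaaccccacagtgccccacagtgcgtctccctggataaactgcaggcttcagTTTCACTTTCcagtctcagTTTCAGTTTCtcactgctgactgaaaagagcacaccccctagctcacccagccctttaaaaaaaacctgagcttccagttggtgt
Ifit3: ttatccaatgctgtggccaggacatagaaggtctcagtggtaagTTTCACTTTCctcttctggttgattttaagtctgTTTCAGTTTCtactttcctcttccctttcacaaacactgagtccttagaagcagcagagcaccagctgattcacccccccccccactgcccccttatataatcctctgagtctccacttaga
Gbp2: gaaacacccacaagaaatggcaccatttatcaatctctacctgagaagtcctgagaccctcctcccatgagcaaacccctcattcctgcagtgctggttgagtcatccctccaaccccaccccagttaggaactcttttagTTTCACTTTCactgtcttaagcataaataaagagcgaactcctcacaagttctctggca

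A match describes the letters only and does not show a bound site. Ifit1, whose window holds 2 matches, had 18.8 and 16.9 RPKM in control, 1.53 and 1.02 in Ezh2 null, against 5.2 and 4.29 in double null (log2 fold change of -1.72 with SE 0.19, limma adjusted p = 5.97e-05). Ifit3, also with 2, had 10.3 and 12.2 RPKM in control, 0.898 and 0.797 in Ezh2 null, against 2.39 and 2.3 in double null (log2 fold change of -1.87 with SE 0.26, limma adjusted p = 0.000261). Gbp2, a guanylate-binding protein with 1 match, had 13.2 and 14.3 RPKM in control, 2.23 and 1.67 in Ezh2 null, against 3.17 and 2.58 in double null (log2 fold change of -1.93 with SE 0.20, limma adjusted p = 5.02e-05). All 3 were lower in each double null library than in each control library. Ifi44, whose window is not printed, had 42.4 and 48.7 RPKM in control and 3.26 and 3.3 in double null (log2 fold change of -3.44 with SE 0.24, limma adjusted p = 3.45e-06). Oasl2 (-2.56), Ifi205 (-3.02) and Mnda (-2.57) were lower too, the last pair being close copies. The interferon regulatory factor genes Irf1 (27.7 and 24.9 against 11.5 and 14.6 RPKM), Irf7 (49.1 and 61.4 against 15.3 and 18.3) and Irf9 (40.2 and 40.2 against 19.7 and 20.4) and the signal transducer gene Stat2 (22.1 and 25.3 against 12.2 and 12.3) were lower. Isg15 (10.8 and 11.5 against 16.4 and 2.32 RPKM, limma adjusted p = 0.659) did not pass the test. Of the 36 members, 7 were higher in double null than in Ezh2 null (3.79% of all genes were), among them Ifit1 (log2 difference of 1.34 with SE 0.19, limma adjusted p = 0.00242), Rsad2 (log2 difference of 1.5 with SE 0.14, limma adjusted p = 0.000236) and Usp18 (log2 difference of 1.08 with SE 0.14, limma adjusted p = 0.00152). Ifi202b, which is no member of the list and has close copies, had 74.8 and 64.4 RPKM in control, 2.7 and 1.79 in Ezh2 null, against 18.4 and 14.5 in double null (log2 difference of 2.43 with SE 0.19, limma adjusted p = 8.02e-05 against Ezh2 null).

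MHC class I presentation genes had 11 of 19 members lower and none higher (median -0.75). This was a called share of 57.9% beside 54.2% of all genes, of which 20% were called lower and 34.2% higher. The light chain gene B2m had 829 and 909 RPKM in control, 682 and 609 in Ezh2 null, against 415 and 368 in double null (log2 fold change of -1.15 with SE 0.17, limma adjusted p = 0.000431, and against Ezh2 null log2 difference of -0.72 with SE 0.17, limma adjusted p = 0.0368). It was the 1 member of the list called lower than in Ezh2 null. H2-T22 (-0.77) and the proteasome activator genes Psme1 and Psme2 (-0.75 and -0.80) were lower. The immunoproteasome subunit genes Psmb8 (25.1 and 33.6 against 6.11 and 7.97 RPKM, log2 fold change of -1.91 with SE 0.31, limma adjusted p = 0.00127) and Psmb9 (13.1 and 13.8 against 4.03 and 7.3, log2 fold change of -1.16 with SE 0.28, limma adjusted p = 0.00852) were lower. Of the classical heavy chain genes, H2-K1 (361 and 416 against 259 and 326 RPKM, limma adjusted p = 0.12) and H2-D1 (358 and 432 against 351 and 467, limma adjusted p = 0.904) did not pass the test. Class I heavy chains are close copies, so their single values are uncertain.

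**Figure D5:**
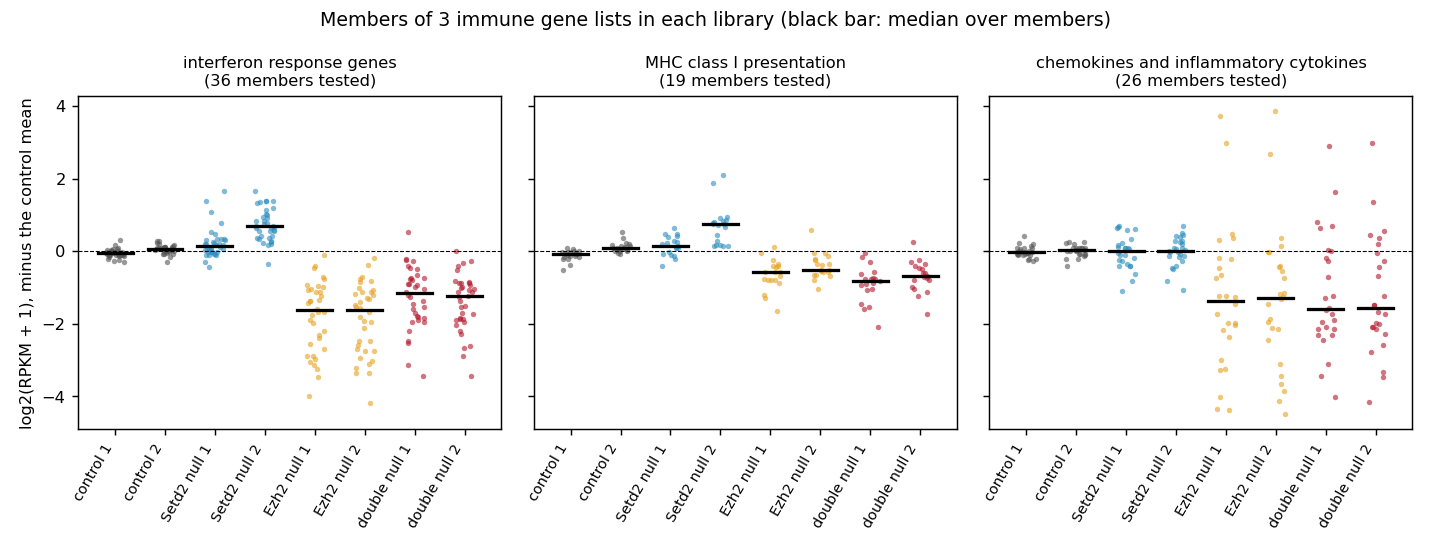
Each point is 1 tested member of the interferon (36), MHC class I (19) or chemokine (26) list in 1 library, as log2(RPKM + 1) minus the member's mean over the 2 control libraries, and black bars mark the median over members. The medians of both double null libraries lie below 0 in all 3 panels, and in the interferon panel they lie above those of both Ezh2 null libraries.

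Chemokines and inflammatory cytokines had 17 of 26 tested members lower and 4 higher (9 more were under 1 RPKM), with a median of -1.58. An NF-kappaB site (GGGA, any 1 base, TTTCC, on either strand) was found before the start of 4 of 18 members with a promoter, all 4 among the 10 called lower (Cxcl1, Cxcl2, Cxcl3 and Csf1), and in 0.483% of 9111 tested genes. The neutrophil chemokine genes Cxcl3, Cxcl1 and Cxcl2 stand in this order on chromosome 5, and the 200 bases before each start (chr5:90785901-90786100, chr5:90891045-90891244 and chr5:90903699-90903898, plus strand, GRCm38.p6, RefSeq) are printed 5′ to 3′ with the match in capitals.
Cxcl3: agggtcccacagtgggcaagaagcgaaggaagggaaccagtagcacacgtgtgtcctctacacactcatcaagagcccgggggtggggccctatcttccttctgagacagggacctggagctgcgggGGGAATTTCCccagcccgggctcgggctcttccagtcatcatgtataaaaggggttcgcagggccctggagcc
Cxcl1: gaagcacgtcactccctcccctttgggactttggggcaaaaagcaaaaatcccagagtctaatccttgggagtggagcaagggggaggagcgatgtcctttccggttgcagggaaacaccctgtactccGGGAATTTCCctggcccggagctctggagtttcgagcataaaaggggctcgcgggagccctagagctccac
Cxcl2: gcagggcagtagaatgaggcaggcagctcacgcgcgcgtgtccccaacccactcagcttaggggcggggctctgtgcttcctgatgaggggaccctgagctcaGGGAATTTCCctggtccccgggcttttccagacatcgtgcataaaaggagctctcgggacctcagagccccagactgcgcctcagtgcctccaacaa

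Cxcl3 had 57 and 64.8 RPKM in control and 4.69 and 4.58 in double null (log2 fold change of -3.45 with SE 0.13, limma adjusted p = 7.89e-08). Cxcl1 had 182 and 161 RPKM in control and 30.6 and 27.5 in double null (log2 fold change of -2.52 with SE 0.18, limma adjusted p = 3.78e-06). Cxcl2 had 53.3 and 53.7 RPKM in control and 16.5 and 18.6 in double null (log2 fold change of -1.55 with SE 0.13, limma adjusted p = 1.18e-05). With Cxcl5, Ppbp and Cxcl15 they made a run of 6 neighbouring tested genes over 146.64 kb (chromosome 5, 90759298 to 90905938) that were all called lower by at least 2-fold. Cxcl15 stood apart within the run, since it had 50.8 and 36.8 RPKM in control, 60.9 and 48.2 in Ezh2 null, against 17 and 14.7 in double null (log2 difference of -1.71 with SE 0.17, limma adjusted p = 0.000361 against Ezh2 null). Outside the run, the growth factor gene Csf2 had 24.3 and 18 RPKM in control and 0.345 and 0.225 in double null (log2 fold change of -4.09 with SE 0.16, limma adjusted p = 8.96e-08). The interleukin 23 subunit gene Il23a had 4.71 and 4.13 against 0.222 and 0.275 RPKM (log2 fold change of -2.12 with SE 0.13, limma adjusted p = 1.13e-06). The epithelial cytokine gene Tslp had 39.3 and 55.4 against 8.58 and 5.91 (log2 fold change of -2.55 with SE 0.21, limma adjusted p = 1.02e-05). The alarmin gene Il1a had 40.4 and 33 RPKM in control, 1.32 and 1.58 in Ezh2 null, against 7.53 and 7.43 in double null (log2 difference of 1.79 with SE 0.13, limma adjusted p = 6.43e-05 against Ezh2 null). The mucosal chemokine genes Cxcl17 (0.174 and 0.692 against 9.59 and 10.2 RPKM) and Ccl28 (0.0376 and 0.168 against 2.44 and 1.8) were higher than in control.

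Antimicrobial and acute phase genes were divided, with 8 of 17 tested members higher and 6 lower (median 0.62, 6 more under 1 RPKM). Beside Ltf, the polymeric immunoglobulin receptor gene Pigr had 3.02 and 5.76 RPKM in control, 196 and 212 in Ezh2 null, against 64.4 and 64.3 in double null (log2 fold change of 3.65 with SE 0.25, limma adjusted p = 2.81e-06, and against Ezh2 null log2 difference of -1.65 with SE 0.25, limma adjusted p = 0.00388). The acute phase gene Saa3 had 0 and 0.124 RPKM in control and 13.6 and 16.5 in double null (log2 fold change of 3.92 with SE 0.17, limma adjusted p = 1.48e-07). The lipopolysaccharide-binding protein gene Lbp was higher (1.79). The complement gene C3 was lower, with 117 and 136 RPKM in control and 26.3 and 28.5 in double null (log2 fold change of -2.17 with SE 0.25, limma adjusted p = 9.21e-05), and so was the nitric oxide synthase gene Nos2, with 25.2 and 40.1 against 3.92 and 4.31 (log2 fold change of -2.68 with SE 0.38, limma adjusted p = 0.00119). Of the 17 members, 7 were lower in double null than in Ezh2 null (2.7% of all genes were). Of 42 beta-defensin genes, a list drawn up after values had been seen, 32 were under 1 RPKM. Of the 10 tested, 9 were under 1 RPKM in both control and Setd2 null, so the filter fixed their direction and their number is no result. Defb1 had 3.89 and 3.52 RPKM in control, 122 and 87.1 in Ezh2 null, against 122 and 86.2 in double null (log2 fold change of 4.46 with SE 0.24, limma adjusted p = 5.46e-07). Defb6 had 0.102 and 0.102 RPKM in control, 219.6 and 150.5 in Ezh2 null, against 24.7 and 15.7 in double null (log2 difference of -3.14 with SE 0.22, limma adjusted p = 5.25e-05 against Ezh2 null), and its double null libraries were far below those of Ezh2 null. A run on chromosome 8 (21776555 to 21948622) held 6 of the 10, namely Defb1, Defb50, Defb2, Defb11, Defb35 and Defb13. Defensin genes are close copies, so their single values are uncertain.

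Cell cycle genes were higher as groups. Of 26 DNA replication genes 25 were called higher and none lower (median 1.24), and of 30 mitosis genes 24 were higher and none lower (median 0.87), with 34.2% of all genes called higher. The helicase subunit gene Mcm2 had 8.56 and 8.26 RPKM in control and 36.5 and 41.3 in double null (log2 fold change of 2.08 with SE 0.17, limma adjusted p = 8.09e-06). Mcm5, of the same helicase, had 7.97 and 8.13 RPKM in control and 33.6 and 40.8 in double null (log2 fold change of 2.07 with SE 0.16, limma adjusted p = 6.71e-06). Cdc20, an activator of the anaphase-promoting complex, had 15.8 and 15.6 RPKM in control and 63.1 and 72.8 in double null (log2 fold change of 2.04 with SE 0.16, limma adjusted p = 6.16e-06). The proliferation marker gene Mki67 had 20.6 and 19.2 RPKM in control and 49.3 and 38.8 in double null (log2 fold change of 1.1 with SE 0.20, limma adjusted p = 0.00125). No member of either list was called in double null against Ezh2 null (6.49% of all genes were). Rfc5, Cdc6 and Mcm3 of the first list (1.6, 1.51 and 1.73 on the log2 scale) and Plk1, Aurkb, Foxm1 and Ube2c of the second (1.45, 1.33, 1.06 and 1.18) were also higher. Fen1, the 1 replication gene not called, had 0.951 and 0.947 RPKM in control and 22.7 and 4.44 in double null (limma adjusted p = 0.0947), so its double null libraries lay far apart. The cell cycle homology element TTTGAA was found before the start of 9 of 24 mitosis genes with a promoter and of 12.5% of all tested genes.

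Inhibitors of cyclin-dependent kinases moved in both directions, with 7 of 14 members of their list (which also holds G1 cyclins) higher and 4 lower. Cdkn2a, the INK4A and ARF locus repressed by Polycomb in many tissues, had 11.9 and 11.3 RPKM in control and 39.7 and 65.9 in double null (log2 fold change of 2.05 with SE 0.28, limma adjusted p = 0.000379). Its neighbour Cdkn2b went the other way, with 49.9 and 43.9 RPKM in control and 15.9 and 24.7 in double null (log2 fold change of -1.2 with SE 0.23, limma adjusted p = 0.00194). The related gene Cdkn2c had 2.87 and 3.09 RPKM in control, 18.4 and 25.2 in Ezh2 null, against 11.8 and 13.9 in double null (log2 fold change of 1.8 with SE 0.16, limma adjusted p = 1.91e-05, and against Ezh2 null log2 difference of -0.71 with SE 0.16, limma adjusted p = 0.033). Cdkn1a, the p53 target p21, had 185 and 185 RPKM in control and 124 and 152 in double null (log2 fold change of -0.43 with SE 0.15, limma adjusted p = 0.0359). Cdkn1c, an imprinted inhibitor, was higher (1.05), as was the cyclin gene Ccne1 (1.05). Of the D cyclins, Ccnd2 (49.3 and 43.7 against 100.4 and 95.3 RPKM) and Ccnd3 (22.6 and 23.3 against 40.3 and 43.5) were higher, and Ccnd1 (185 and 198 against 229 and 167, limma adjusted p = 0.896) did not pass the test.

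Metabolic lists differed in how double null stood to Ezh2 null. Most glycolysis genes were not called against control in double null, with 4 of 20 tested members lower and 1 higher and a median of -0.09, against a median of -0.69 in Ezh2 null over the same control libraries. After quantile normalization 13 of the 20 were called lower in double null. Against Ezh2 null 6 members were higher and none lower, where 3.79% of all genes were higher and 2.7% lower. Pfkp, a phosphofructokinase, had 31.6 and 30.3 RPKM in control, 6.12 and 5.95 in Ezh2 null, against 14.1 and 15.5 in double null (log2 fold change of -1.02 with SE 0.11, limma adjusted p = 6.76e-05, and against Ezh2 null log2 difference of 1.16 with SE 0.11, limma adjusted p = 0.000288). The lactate exporter gene Slc16a3 had 87.3 and 83.6 RPKM in control, 11.9 and 15.3 in Ezh2 null, against 30.2 and 41 in double null (log2 fold change of -1.26 with SE 0.17, limma adjusted p = 0.000233, and against Ezh2 null log2 difference of 1.32 with SE 0.17, limma adjusted p = 0.00145). Phosphoglycerate kinase, encoded by Pgk1, had 1068 and 946 RPKM in control, 491 and 535 in Ezh2 null, against 799 and 942 in double null (log2 difference of 0.76 with SE 0.17, limma adjusted p = 0.0255 against Ezh2 null). For Pfkp and Slc16a3 the double null libraries lay between those of Ezh2 null and control. The lactate transporter gene Slc16a1 was the higher member (1.03), and the aldolase genes Aldoa and Aldoc were the other lower ones (-0.40 and -0.52), both of which lost their call under at least 1 alternative. The lactate dehydrogenase gene Ldha (942 and 864 against 810.1 and 938 RPKM, limma adjusted p = 0.822) did not pass the test against control. The hypoxia element core ACGTG, looked for on both strands, stood before 11 of 20 glycolysis genes and 25.3% of all tested genes.

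Subunits of oxidative phosphorylation were higher, with 22 of 27 members called and none lower (median 0.67). The cytochrome c oxidase gene Cox4i1 had 208 and 206 RPKM in control and 391 and 514 in double null (log2 fold change of 1.11 with SE 0.20, limma adjusted p = 0.00117). The cytochrome c1 gene Cyc1 had 47.2 and 49.7 RPKM in control and 94.2 and 117 in double null (log2 fold change of 1.1 with SE 0.15, limma adjusted p = 0.000295). Uqcrc1, Ndufv1 and Atp5d were higher as well (0.87, 1.04 and 0.72). Of the sterol and fatty acid synthesis genes 16 of 27 were higher and 2 lower (median 0.62). The mevalonate kinase gene Mvk had 10.8 and 9.02 RPKM in control and 30.5 and 41.8 in double null (log2 fold change of 1.76 with SE 0.25, limma adjusted p = 0.000283), and the squalene epoxidase gene Sqle had 54.4 and 54.7 against 112 and 118 (log2 fold change of 1.06 with SE 0.13, limma adjusted p = 0.000116). Dhcr7 and Insig1 were also higher (0.96 and 1.2). The sterol regulatory element (TCAC, any 1 base, CCAC, on either strand) stood before 1 of 19 members with a promoter and 1.27% of all tested genes. Genes of cysteine, taurine and glutathione metabolism had 14 of 24 members higher and 1 lower (median 0.85). Beside Cdo1, the glutathione transferase gene Gsto1 had 398 and 396 RPKM in control and 2267 and 2551 in double null (log2 fold change of 2.6 with SE 0.14, limma adjusted p = 7.01e-07), and Gstm1 had 6.59 and 6.18 against 80 and 72.1 (log2 fold change of 3.38 with SE 0.12, limma adjusted p = 5.09e-08). Gsta3 was higher too (2.34). Leaving out the mitochondrial gene COX1, Gsto1 was second to Eef1a1 among the genes of highest mean RPKM in double null. The plasma glutathione peroxidase gene Gpx3 had 3.41 and 3.92 RPKM in control and 32 and 30.3 in double null (log2 fold change of 2.79 with SE 0.12, limma adjusted p = 1.3e-07).

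Among signalling lists, TGF-beta, activin and BMP genes had 13 of 24 tested members lower and 3 higher (median -0.85, 3 more under 1 RPKM). The ligand subunit gene Inhba had 52.2 and 47 RPKM in control and 1.17 and 1.25 in double null (log2 fold change of -4.51 with SE 0.16, limma adjusted p = 5.6e-08). The receptor-activated effector gene Smad3 had 67.2 and 70.7 RPKM in control and 20.9 and 22.1 in double null (log2 fold change of -1.64 with SE 0.17, limma adjusted p = 4.11e-05), and the inhibitor gene Smad7 had 24.2 and 26.8 against 5.42 and 7.62 (log2 fold change of -1.83 with SE 0.21, limma adjusted p = 7.54e-05). The co-repressor gene Skil (-2.47) and the latent TGF-beta binding protein gene Ltbp1 (-2.25) were lower as well. Tgfb3 had 9.02 and 11 RPKM in control, 9.01 and 9.56 in Ezh2 null, against 2.43 and 2.45 in double null (log2 difference of -1.58 with SE 0.16, limma adjusted p = 0.000361 against Ezh2 null). The stress-induced ligand gene Gdf15 was higher, with 2.25 and 1.31 RPKM in control and 18.6 and 22.4 in double null (log2 fold change of 2.97 with SE 0.24, limma adjusted p = 7.46e-06).

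Wnt ligands, receptors and feedback genes had 12 of 23 tested members lower and 5 higher (median -0.54, 9 more under 1 RPKM). The non-canonical ligand genes Wnt5a (14.1 and 12.7 against 1.62 and 1.6 RPKM, log2 fold change of -2.47 with SE 0.17, limma adjusted p = 2.47e-06) and Wnt11 (5.65 and 5.25 against 0.76 and 1.27, log2 fold change of -1.69 with SE 0.20, limma adjusted p = 9.33e-05) were lower. The receptor gene Fzd4 was also lower (18.6 and 19.5 against 5.69 and 5.71 RPKM, log2 fold change of -1.58 with SE 0.11, limma adjusted p = 2.89e-06). The feedback and target genes Axin2 (6.1 and 6.81 against 14 and 14.8 RPKM, log2 fold change of 1.05 with SE 0.13, limma adjusted p = 0.00012), Rnf43 (5.36 and 6.22 against 11.8 and 12.4), Znrf3 (2.65 and 2.34 against 5.1 and 4.88) and Sp5 (0.425 and 0.376 against 12.9 and 16.9, log2 fold change of 3.5 with SE 0.20, limma adjusted p = 7.52e-07) were higher. The ligand gene Wnt4 was higher as well (15 and 18.4 against 51.2 and 61, log2 fold change of 1.69 with SE 0.15, limma adjusted p = 1.41e-05). The secreted inhibitor-family gene Dkk3 was lower (-2.32). Axin2, Rnf43, Znrf3, Sp5 and Wnt4 are all the higher members of the list.

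PI3K-AKT pathway genes had 7 of 22 tested members higher and 5 lower, a called share of 54.5% beside 54.2% of all genes, and 5 higher and 9 lower after quantile normalization. Their median was 0.02, and -0.11 after quantile normalization. The regulatory subunit gene Pik3r3 had 4.45 and 3.86 RPKM in control and 14.3 and 12.3 in double null (log2 fold change of 1.47 with SE 0.13, limma adjusted p = 1.82e-05), and Pik3r1 had 5.36 and 5.72 against 12.5 and 10.9 (log2 fold change of 0.96 with SE 0.13, limma adjusted p = 0.00023). The catalytic subunit gene Pik3ca was lower, with 14.4 and 14 RPKM in control and 8.89 and 7.21 in double null (log2 fold change of -0.75 with SE 0.15, limma adjusted p = 0.00197), as was the mTORC2 subunit gene Rictor (-0.91). The energy-sensing AMPK and FOXO list had 10 of 20 tested members higher and 2 lower (median 0.33), but 5 higher and 5 lower after quantile normalization. Its called share was 60% beside 54.2% of all genes, so the counts are no result about this list. The sestrin gene Sesn2 had 9.16 and 8.52 RPKM in control and 18.8 and 24.9 in double null (log2 fold change of 1.2 with SE 0.21, limma adjusted p = 0.00122). Sesn1, Camkk2 and Prkag1 were higher as well (0.90, 0.82 and 0.93 on the log2 scale). The lower members were the forkhead factor gene Foxo1, with 13.1 and 14.8 RPKM in control and 8.64 and 6.82 in double null (log2 fold change of -0.78 with SE 0.26, limma adjusted p = 0.0277), and Tbc1d1 (-0.70).

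Setting double null beside the single deletions, 6241 genes (55%) were called against Setd2 null, 35.6% higher and 19.4% lower, and 736 (6.49%) against Ezh2 null. The interaction, which asks whether double null differs from the sum of both single deletions on the log2(RPKM + 1) scale, was called for 294 genes (2.59%), 192 higher (1.69%) and 102 lower (0.9%). Against the same control libraries, Ezh2 null had 56.6% and Setd2 null 1.07% of genes called (0.379% higher and 0.688% lower), with medians of 0.18 and -0.02. The counts against Ezh2 null and of the interaction were smaller when a double null or control library was left out. Such fits leave 1 library in that group, so they cannot show that the calls rest on a particular library.

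Of the genes called both against Ezh2 null and against control, Sult5a1, a sulfotransferase, had 0.391 and 0.636 RPKM in control, 0.643 and 0.507 with Setd2 deleted alone, 0.573 and 0.263 in Ezh2 null, against 20.7 and 19.2 in double null (log2 difference of 3.89 with SE 0.15, limma adjusted p = 1.45e-06 against Ezh2 null). It was near 0 in every library but those of double null. The trefoil peptide gene Tff1 was at 0 in control, with 0.737 and 1.03 RPKM in Ezh2 null, against 10.9 and 13.7 in double null (limma adjusted p = 7.56e-06 against Ezh2 null). Its relative Tff3 had 0.072 and 0 RPKM in control, 0.589 and 0.735 in Ezh2 null, against 5.89 and 8.34 in double null (log2 difference of 2.27 with SE 0.15, limma adjusted p = 4.17e-05). The spermine-binding protein-like gene Sbpl was at 0 in control, with 0.164 and 0.048 RPKM in Ezh2 null, against 10.2 and 11 in double null (limma adjusted p = 1.15e-06). Sult5a1, Tff1, Tff3 and Sbpl had means under 1 RPKM in control and Ezh2 null. They passed the filter through double null, where they were high, so the filter fixed their direction against Ezh2 null. Their p is no support for that direction. On the lower side, the surfactant protein D gene Sftpd had 0.722 and 1.02 RPKM in control, 34.8 and 33.1 in Ezh2 null, against 7.65 and 6.76 in double null (log2 difference of -2.09 with SE 0.15, limma adjusted p = 5.25e-05). Ltf had 1053 and 1042 RPKM in Ezh2 null, and its double null libraries were far lower (log2 difference of -2.04 with SE 0.16, limma adjusted p = 7.85e-05). The claudin gene Cldn2 had 0.0806 and 0.010 RPKM in control, 25.5 and 24.2 in Ezh2 null, against 8.41 and 7.42 in double null (log2 difference of -1.54 with SE 0.12, limma adjusted p = 8.02e-05). The ribosomal protein gene Rpl29 also differed from Ezh2 null (log2 difference of -4.07 with SE 0.17, limma adjusted p = 2.29e-06), with 104 and 89.4 RPKM in control, 14.9 and 10.4 with Setd2 deleted alone and 16.1 and 16.6 in double null, but it has near-identical copies, so its values are uncertain.

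Some changes against control were larger in double null than in Ezh2 null for genes lowered in both. Vcam1 had 79.5 and 82.7 RPKM in control, 8.43 and 7.67 in Ezh2 null, against 2.09 and 2.28 in double null (log2 difference of -1.51 with SE 0.12, limma adjusted p = 9.17e-05 against Ezh2 null). Ctgf had 48.4 and 41 RPKM in Ezh2 null, above both double null libraries (log2 difference of -1.58 with SE 0.17, limma adjusted p = 0.00059). For Vim the Ezh2 null libraries were at 3.9 and 4.22 RPKM, again above double null (log2 difference of -0.95 with SE 0.12, limma adjusted p = 0.00107). Ndrg1, a stress and androgen response gene, went the other way, with 300.4 and 274 RPKM in control, 47 and 42.7 in Ezh2 null, against 137 and 138 in double null (log2 difference of 1.6 with SE 0.13, limma adjusted p = 9.98e-05).

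Some neighbouring genes changed in 1 direction. There were 69 runs of at least 3 neighbouring tested genes all called in the same direction by at least 2-fold. Of all genes 11.2% were called at least 2-fold higher and 6.69% lower. How many runs these shares would give without regard to position was not worked out. Several of the runs hold close copies such as keratins and defensins, whose single values are uncertain. The longest was a keratin run of 7 genes over 316.3 kb of chromosome 15 (101624028 to 101940324): Gm5414, Krt6b, Krt6a, Krt5, Krt1, Krt4 and Krt79, with fold changes from 1.2 to 3.65. A second keratin run of 5 stood on chromosome 11 (99385254 to 100135949) and held Krt10, Krt20, Krt23, Krt13 and Krt15. On chromosome 3 (92570899 to 93449077) the epidermal differentiation genes Ivl, Crct1, Crnn, Rptn and Tchh made a run of 5, from 2.4 to 4.79. A run of 5 lower genes on chromosome 11 (48865245 to 49096987) held the interferon-inducible GTPase genes Irgm1, Tgtp1 and Ifi47 besides Psme2b and 9930111J21Rik1. Irgm1 had 44.9 and 35.9 RPKM in control and 11.3 and 10.3 in double null (log2 fold change of -1.8 with SE 0.16, limma adjusted p = 1.69e-05). Low genes that did not reach 1 RPKM were skipped in finding neighbours.

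Leaving out the mitochondrial gene COX1, the 8 genes of highest mean RPKM in double null were Eef1a1, Gsto1, Krt15, Rpl41, Rplp1, Krt19, Tpt1 and Krt5. The elongation factor gene Eef1a1 had 3685 and 3406 RPKM in control and 4794 and 4446 in double null (log2 fold change of 0.38 with SE 0.17, limma adjusted p = 0.0824). Krt19 had 2134 and 2112 RPKM in control and 1789 and 2146 in double null (log2 fold change of -0.12 with SE 0.19, limma adjusted p = 0.623), and its groups overlapped. Of these 8, Eef1a1, Tpt1 and Krt19 were also among the 8 highest of control without COX1, beside Clu, S100a11, Actb, Anxa1 and S100a6. The actin gene Actb was lower, with 1852 and 1975 RPKM in control and 979.7 and 1137 in double null (log2 fold change of -0.86 with SE 0.15, limma adjusted p = 0.00121), and the calcium-binding protein gene S100a6 had 1806 and 1598 against 818 and 774 (log2 fold change of -1.09 with SE 0.19, limma adjusted p = 0.000969).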

How the data were processed

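RNA levels of 21886 mouse genes in 8 libraries (4 genotypes, 2 pooled libraries each) were taken from the RPKM values that the authors deposited. The deposited counts of another table in the series, and the H3K27me3 data, were not used here. The submitters' processing notes name Bowtie, RSEM, BWA, SICER and mm10, while version numbers and strandedness were not given in the sources used here. For gene symbols that had been read as dates, 27 were renamed. The 11338 genes whose mean level in the 8 libraries reached 1 RPKM were tested as log2(RPKM + 1) with limma 3.58.1 in R 4.3.3, with all 4 genotypes in 1 fit, contrasts between groups, and Benjamini-Hochberg adjustment over all genes at 0.05. Whole reads could be recovered within 0.01 reads in every library for 99.97% of the genes above 0 in all 8 (13744 of 13748), which allowed edgeR 4.0.16 and DESeq2 1.42.0 to be run on 11334 genes as alternatives. The other alternatives were quantile and median-ratio scaling, filters, a pseudocount of 0.1, fits on the groups compared only, a replicate block, a fold threshold and each library left out. Only genes that overlap no other listed gene was an alternative chosen after seeing the data. The scripts were tested on simulated data.

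Genes named are Setd2 and Ezh2, the 12 highest and 12 lowest called fold changes with groups that do not overlap and at least 5 RPKM in the higher group, up to 5 members of each list by smallest p, the 6 highest and 6 lowest against Ezh2 null, the 8 most abundant genes of each group, and the genes of the 6 longest runs, apart from some that are not reported here. The genes, lists and rules were chosen with earlier results of these data known, and the keratin, cornified envelope and beta-defensin lists were added after values had been seen. Promoters (Python 3.11.15) were RefSeq sequences of GRCm38.p6.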

Additional observations from a re-analysis of the deposited data

Results flagged for a closer look

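For 42 of the named genes, limma's interaction test found that the change in double null differed from the sum of the changes in Setd2 null and Ezh2 null on the log2(RPKM + 1) scale. Over all genes 2.59% passed this test. Some genes were named for their large differences between double null and Ezh2 null, which are part of the interaction. The number 42 therefore cannot be compared with that share. The double null level was above the sum for the keratin genes Krt10 at 1.733 (limma adjusted p = 0.009195), Krt6b at 2.496 (limma adjusted p = 0.004039) and Krt1 at 1.811 (limma adjusted p = 0.001469). It was also above for Krt23 at 1.653 (limma adjusted p = 0.004241) and Krt20 at 1.268 (limma adjusted p = 0.005911). The squamous genes above the sum were Sprr2d at 3.247 (limma adjusted p = 0.03301), Crct1 at 2.401 (limma adjusted p = 0.0008964) and Rptn at 1.553 (limma adjusted p = 0.00141). The same direction was found for Sult5a1 at 3.833 (limma adjusted p = 4.16e-05), Sbpl at 3.39 (limma adjusted p = 2.198e-05) and Tff1 at 2.77 (limma adjusted p = 0.0001835), and for Ifi202b at 2.136 (limma adjusted p = 0.003244), Cyp4a12a at 1.69 (limma adjusted p = 0.003342) and Cldn6 at 1.373 (limma adjusted p = 0.005233). Of the factor genes it held for Hoxd12 at 1.212 (limma adjusted p = 0.005252), Hand2 at 1.474 (limma adjusted p = 0.005911) and Hey1 at 1.063 (limma adjusted p = 0.03834). Among the glycolysis genes it held for Pfkp at 1.194 (limma adjusted p = 0.00428), Slc16a3 at 1.503 (limma adjusted p = 0.0104) and Aldoc at 1.17 (limma adjusted p = 0.01962). The last above the sum were Aldh1a3 at 0.8022 (limma adjusted p = 0.0496) and Defb11 at 0.9396 (limma adjusted p = 0.01512). The level was below the sum for Defb6 at -3.061 (limma adjusted p = 0.001367) and Sftpd at -2.235 (limma adjusted p = 0.0008964), and for Pigr at -1.905 (limma adjusted p = 0.02171) and Ltf at -1.46 (limma adjusted p = 0.008436). Of the protease, matrix and adhesion genes it was below for Timp1 at -1.792 (limma adjusted p = 0.00203), Mmp13 at -1.271 (limma adjusted p = 0.00311) and Ctgf at -1.52 (limma adjusted p = 0.01118), and for Vcam1 at -1.555 (limma adjusted p = 0.00168), Cldn2 at -1.475 (limma adjusted p = 0.00203) and Col3a1 at -0.8903 (limma adjusted p = 0.04076). The immune genes below the sum were Ifi205 at -1.27 (limma adjusted p = 0.005911), Mnda at -0.9872 (limma adjusted p = 0.016) and Lyz2 at -1.22 (limma adjusted p = 0.004276), with H2-T22 at -0.896 (limma adjusted p = 0.01898) and B2m at -1.317 (limma adjusted p = 0.0211). The remaining genes below it were Hoxb8 at -1.311 (limma adjusted p = 0.003761) and Hoxb2 at -1.311 (limma adjusted p = 0.01007), then Tgfb3 at -1.271 (limma adjusted p = 0.01852), Gsta3 at -1.194 (limma adjusted p = 0.02301) and Rpl29 at -1.222 (limma adjusted p = 0.02781). Rpl29, Ifi205, Mnda, Ifi202b, H2-T22 and the keratin and defensin genes have close copies, so their values are uncertain. Cyp4a12a, Hand2, Lyz2, Sbpl, Tff1 and Defb11 were listed at 0 in control, so the size of their interaction depends on the pseudocount. Sult5a1, Sbpl and Tff1 passed the filter through double null, where they were high, so the filter fixed the direction of their interaction. Mmp13, Ifi205 and Mnda were near 0 in both groups without Ezh2. Their means were 0.0146, 0.136 and 0.163 RPKM in Ezh2 null, against 0.0595, 0.499 and 0.522 in double null. For these genes both the size and the direction of the interaction depend on the pseudocount.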

How the results depend on the processing

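The 6147 calls in double null against control stayed within 1.5 times under every alternative run but 1: with a log2 fold change of at least 1 required, 2034 remained called, 1275 higher and 759 lower. Leaving out 1 library gave 4339 to 6408 calls (2793 to 4045 higher, 1546 to 2363 lower). The share of higher calls was 63.0% and fell to 48.2% after quantile normalization, 50.4% after median-ratio scaling, 50.4% with edgeR and 50.5% with DESeq2. Against Ezh2 null (736) the count was 1022 with DESeq2 and 633 with edgeR. It was 465 at a mean of at least 5 RPKM, 399 with only these groups in the fit and 241 with a log2 difference of at least 1. There it ran from 361 (without double null library 2) to 799 with 1 library left out, with 412 and 472 without Ezh2 null libraries 1 and 2 and 438 without double null library 1. Against Setd2 null (6241) it was 2069 with a log2 difference of at least 1 and 4707 to 6232 with 1 library left out. The interaction count (294) was 146 at a mean of at least 5 RPKM and 194 with edgeR, and ran from 142 (without control library 2) to 278, with 157 without control library 1 and 189 without double null library 2. With DESeq2 the interaction count was 438. The fits on groups compared only could not be run for the interaction, and no endothelial or neuroendocrine marker reached a mean of 5 RPKM. The causes of these moves were not tested beyond the smaller number of genes or libraries.

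The labels give no shared batch or animal for a replicate number. In Ezh2 null and double null the libraries numbered 1 and 2 differed alike, and the source of this was not tested. In Ezh2 null 90 genes were at least 4-fold higher in library 1, and 77 of them overlapped another listed gene. The double null numbers were 92 and 79. The main test against Ezh2 null does not take this difference into account. With the replicate number as a block, 7168 genes were called against control (4459 higher, 2709 lower), 1078 against Ezh2 null, 7232 against Setd2 null and 469 in the interaction. Deviations of same-numbered libraries had a correlation of 0.9332 between Ezh2 null and double null and of 0.1052 to 0.3584 for the other 5 pairs of groups, with 0.1326 between control and double null. Of 219 named genes 210 were called, and 201 of these under every alternative run apart from the fold threshold, which left 173, while Rbbp7, Uty, Rnf2, Cbx8, Bmi1, Col1a1, Aldoc, Aldoa and Ereg lost the call in at least 1. No named gene reversed its direction while called.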

Other observations

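Junction genes of epithelial cells changed in both directions, with 13 of 31 members higher and 7 lower in double null (median 0.27). This was a called share of 64.5% beside 54.2% of all genes. After quantile normalization 9 were higher and 7 lower (median 0.14), so the counts are no result about this list. The claudin gene Cldn8 had 1.68 and 1.46 RPKM in control and 22.2 and 20.7 in double null (log2 fold change of 3.13 with SE 0.14, limma adjusted p = 1.63e-07). The adhesion molecule gene Epcam was lower, with 1048 and 1047 RPKM in control and 326 and 329.9 in double null (log2 fold change of -1.67 with SE 0.13, limma adjusted p = 5.85e-06). Notch pathway genes had 6 of 11 tested members higher and 2 lower, a called share of 72.7% beside 54.2% of all genes. The receptor gene Notch1 had 21 and 22.8 RPKM in control and 61.6 and 70.2 in double null (log2 fold change of 1.54 with SE 0.17, limma adjusted p = 5.97e-05), and the ligand gene Dll1 had 1.43 and 1.69 against 4.43 and 4.86 (log2 fold change of 1.14 with SE 0.16, limma adjusted p = 0.00028). The modifying glycosyltransferase gene Rfng was higher (1.9 on the log2 scale) and the target gene Hey1 lower (-0.81).

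EGF family ligands and receptors had 4 of 11 tested members higher and 3 lower (4 and 4 after quantile normalization). This was a called share of 63.6% beside 54.2% of all genes, so the counts are no result about this list. Their median was 0.06, and -0.22 after quantile normalization. The ligand gene Epgn had 0.445 and 0.54 RPKM in control and 3.06 and 2.67 in double null (log2 fold change of 1.37 with SE 0.12, limma adjusted p = 1.44e-05), while Hbegf had 72.6 and 71.1 against 22.8 and 27.4 (log2 fold change of -1.49 with SE 0.15, limma adjusted p = 3.74e-05). The receptor genes went apart, Erbb2 at 0.75 and Egfr at -0.60 on the log2 scale. Of 6 tested imprinted genes 3 were higher and 1 lower, a called share of 66.7% beside 54.2% of all genes. Grb10, an adaptor that restrains insulin signalling, had 0.832 and 0.577 RPKM in control and 4.68 and 4.06 in double null (log2 fold change of 1.66 with SE 0.13, limma adjusted p = 8.35e-06), and Nnat had 6.9 and 6.25 against 2.42 and 2.2 (log2 fold change of -1.19 with SE 0.13, limma adjusted p = 5.5e-05). The list of immediate early and heat shock genes had 5 of 19 tested members higher and 2 lower, a called share of 36.8% beside 54.2% of all genes, and 4 higher and 4 lower after quantile normalization. Among its members were Jund at 1.41, Hspa1b at 1.68, Nr4a1 at 1.02 and Ier3 at -1.06. Among markers of other cells, the neuroendocrine gene Uchl1 had 5.58 and 7.25 RPKM in control and 0.404 and 1.03 in double null (log2 fold change of -2.13 with SE 0.22, limma adjusted p = 4.44e-05), and the endothelial gene Esam had 0.513 and 0.44 against 2.09 and 2.63 (log2 fold change of 1.18 with SE 0.17, limma adjusted p = 0.000399).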
